A study of Mus musculus with 6 samples.

Results

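The genes of cholesterol and fatty acid synthesis were followed through the E, M and RE stages of EpH4, a near-normal mouse mammary epithelial cell line. They were taken as a list of 36 gene symbols, listed by their place in the pathway. Of these, 35 had a row in the deposited table of 17428 genes, and all 35 were among the 13893 genes that passed the filter on low values (at least 500 bases, which is 10 reads' worth, in at least 2 libraries). *Hmgcs1* was not analysed here. The list was read in 5 groups, namely the mevalonate pathway (7 listed, 6 measured), the steps from squalene to cholesterol (11), the SREBP control and sterol transport genes (6), fatty acid synthesis (5), and desaturation and elongation (7).

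RNA was sequenced from 2 libraries per stage, 6 in all. E cells (E1 and E2) were never exposed to TGFβ1, a cytokine that drives epithelial-mesenchymal transition. M cells (M1 and M2) had TGFβ1 added to their medium for 7 days, and RE cells (RE1 and RE2) had the same 7 days followed by 4 days in medium without it. Every stage was grown with fetal bovine serum and insulin, and no genotype or transgene differed between them. The labels speak of 3 biological replicas at RNA extraction and of n = 2 for sequencing. They do not say whether E1, M1 and RE1 came from 1 culture series. All values therefore describe 1 cell line and 1 schedule, and RE cells differ from M cells both in TGFβ1 and in 4 further days of culture. The p-values measure the spread between these libraries only.

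Animal cells build cholesterol and fatty acids from acetyl-CoA. The mevalonate pathway joins acetyl units into isoprenoids and then squalene, which is closed into a ring and trimmed to cholesterol, while acetyl-CoA carboxylase and fatty acid synthase make palmitate, which elongases lengthen and desaturases give double bonds. SREBP transcription factors switch on most of these genes: SCAP carries them out of the endoplasmic reticulum when sterols are scarce, and the INSIG proteins hold SCAP back when sterols are plentiful. In the mammary gland the fatty acid arm is best known for supplying milk fat.

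Values in the table were coverage, the sum of the sequenced bases that fell on each gene, and were expressed in ppm of the TMM-normalized library total. The libraries held between 35782513 and 47928557 reads' worth of 50 bases, with TMM factors from 0.871 to 1.12. The thinnest member was *Idi1*, with 58 to 211 reads' worth per library. The summed level of 5 mammary epithelial markers was 1737 and 1407 ppm in E, 1298 and 1309 ppm in M, and 806 and 852 ppm in RE. *Krt18* made up the largest part of the sum in E and M, and *Cdh1* gave -0.15 from E to M and -0.17 from E to RE. *Krt8* rose from E to M by 0.67 (limma adjusted p = 0.00919) and fell from E to RE by 0.66. *Cldn3* and *Cldn4* gave -1.35 and -1.07 from E to M (limma adjusted p = 0.00076 and 0.000931). From E to RE, *Cldn3*, *Cldn4* and *Krt18* gave -1.03, -1.28 and -1.34 (limma adjusted p = 0.00465, 0.00107 and 0.00305). The value of *Krt18* from E to M was -0.37 (limma adjusted p = 0.167). The 4 adipocyte markers in the table together reached at most 0.101 ppm in any library, and the casein gene *Csn3*, a marker of secretory mammary cells, had 1.47 and 1.62 ppm in E and at most 0.0455 ppm in RE. In these bulk samples, fewer cells expressing a gene and less RNA per cell cannot be told apart.

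Relative to E cells, the measured genes of the list were mostly higher in RE cells, with 33 of 35 on the higher side. In M cells the list was split, with 22 higher and 13 lower than in E. Of all genes tested, 50.5% were higher in RE than in E and 50.1% higher in M than in E. A gene was called when its log2 fold change exceeded 1 either way at a Benjamini-Hochberg adjusted p below 0.01 in limma, and "rose" and "fell" are used for an adjusted p below 0.05. From E to M, 2 members were called higher (*Hsd17b7* and *Scd2*) and 2 lower (*Acss2* and *Elovl6*), against 8.58% and 8.39% of all genes tested. At the looser threshold 11 rose and 4 fell, against 21.5% and 19.9% of all genes, but under scaling by library totals 4 rose and 8 fell, with *Dhcr7*, *Srebf1*, *Acaca*, *Fasn*, *Scd1*, *Fads2* and *Elovl5* no longer among those that rose. From M to RE, 5 members were called higher (*Idi1*, *Insig1*, *Acss2*, *Acacb* and *Elovl6*) against 8.08% of all genes, and 0 lower against 4.79%. At the looser threshold 14 rose, against 17% of all genes, and 2 fell, against 14.6%. From E to RE, 6 members were called higher (*Idi1*, *Hsd17b7*, *Insig1*, *Stard4*, *Scd1* and *Scd2*) against 6.2% of all genes, and 0 lower against 3.17%. At the looser threshold 14 rose, against 17.2% of all genes, and 0 fell, against 12.9%, with the lowest fold changes at -0.26 for *Elovl1* and -0.17 for *Scap*.

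The median log2 fold change over the 35 genes was 0.30 from E to M, 0.45 from M to RE and 0.51 from E to RE, where the medians over all genes tested were 0.00, -0.02 and 0.01. The comparisons share libraries pairwise, so these are not independent of each other. Under scaling by library totals alone the median of all genes stood at -0.29, 0.18 and -0.08 in the same order, and the medians of the list then became 0.0019, 0.66 and 0.41, so that relative to all genes the list stood about as before.

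**Figure D1:**
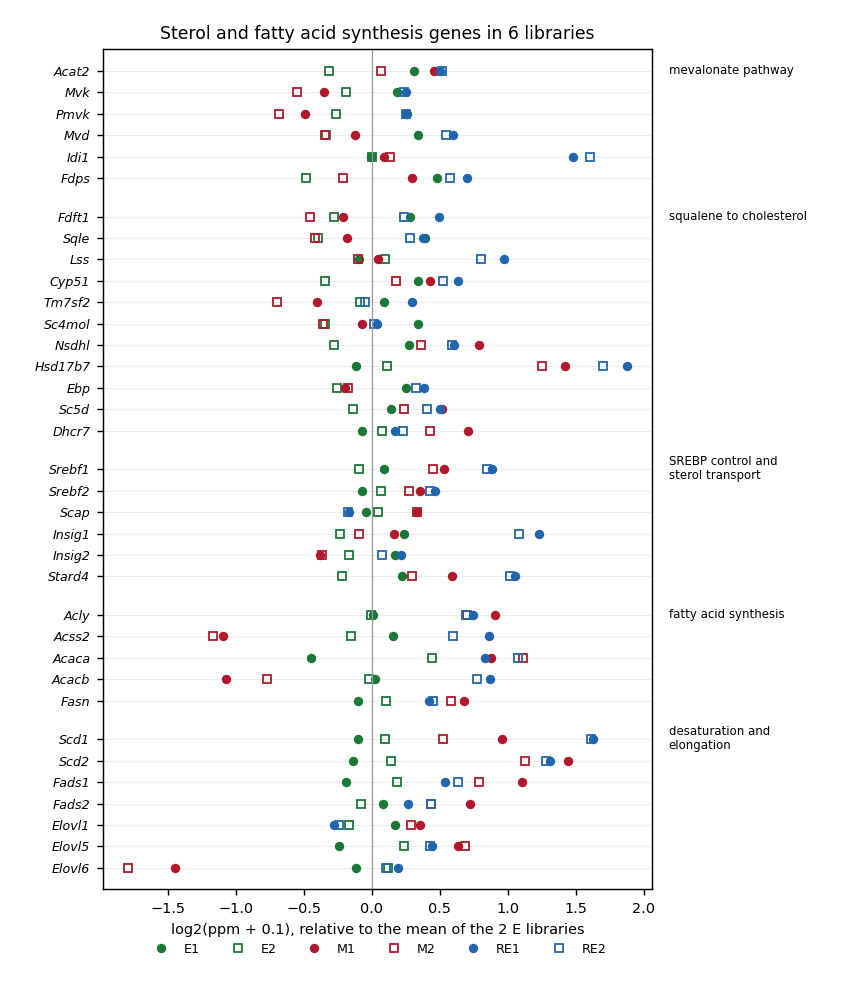
Level of each of the 35 measured genes in the 6 libraries, on the log2(ppm + 0.1) scale relative to the mean of both E libraries of that gene; filled circles are library 1 and open squares library 2 of E (green), M (red) and RE (blue). The RE symbols of *Idi1*, *Hsd17b7*, *Insig1*, *Stard4* and *Scd1* lie to the right of all E and M symbols, and the M symbols of *Acss2*, *Acacb* and *Elovl6* to the left of all others.

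In the mevalonate pathway, no gene was called between E and M, and only *Idi1* was called in RE. *Idi1*, the isomerase that makes the allylic isoprenoid unit, stood at 1.501 and 1.508 ppm in E, 1.61 and 1.66 ppm in M, and 4.37 and 4.79 ppm in RE. The E and M libraries were close together and both RE libraries were well above them. The log2 fold change was 1.43 ± 0.21 (SE, n = 2 per group, limma adjusted p = 0.00202) from M to RE and 1.54 ± 0.21 (limma adjusted p = 0.00234) from E to RE, or 2.80 and 3.05 times the mean level, against 0.11 from E to M (limma adjusted p = 0.69).

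The neighbouring steps gave smaller values. *Mvk*, *Pmvk* and *Mvd*, which phosphorylate and decarboxylate mevalonate, rose from M to RE by 0.69, 0.84 and 0.80 on the log2 scale (limma adjusted p = 0.0155, 0.0144 and 0.0291). From E to M, *Pmvk* fell by 0.59 (limma adjusted p = 0.0432), and the value of *Mvk* was -0.45 (limma adjusted p = 0.0586). *Acat2* and *Fdps*, at the start and the end of this stretch, had positive values from M to RE (0.25 and 0.60) that did not pass (limma adjusted p = 0.451 and 0.19). All 6 measured genes of the stretch were thus on the higher side from M to RE, as were 48.8% of all genes. The median of the 6 was 0.75.

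Between squalene and cholesterol, *Hsd17b7* was the only gene of 11 to be called. It encodes the 3-ketosteroid reductase of cholesterol synthesis. Its levels were 14.6 and 17.1 ppm in E, 42.6 and 37.8 ppm in M, and 58.4 and 51.6 ppm in RE. The 3 stages did not overlap, and the step was already present in M cells. It rose from E to M by 1.34 ± 0.15 (SE, limma adjusted p = 0.000531), from E to RE by 1.79 ± 0.15 (limma adjusted p = 0.000493), and the further value from M to RE was 0.45 (95% interval 0.09 to 0.81, limma adjusted p = 0.0589).

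*Lss*, which closes squalene epoxide into lanosterol, was level between E and M (log2 fold change -0.03) and rose in RE by 0.92 from M and 0.89 from E (limma adjusted p = 0.00247 and 0.00404), short of the fold threshold. *Fdft1*, which makes squalene, and *Tm7sf2*, a sterol reductase, rose from M to RE by 0.70 and 0.68 (limma adjusted p = 0.0382 and 0.0324). Against E, the same 2 genes in RE gave 0.37 and 0.12 and did not pass (limma adjusted p = 0.216 and 0.651). *Dhcr7*, the reductase of the last step, ran the other way around: it rose from E to M by 0.57 (limma adjusted p = 0.0164) and its value from M to RE was -0.37 (limma adjusted p = 0.0911).

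*Sqle*, the oxygen-requiring and often rate-limiting squalene epoxidase, stood at 541 and 313 ppm in E, 362 and 308 ppm in M, and 534 and 501 ppm in RE. E1 was as high as RE1 while E2 was as low as M2, so the E libraries span the whole range. None of its 3 comparisons passed, with log2 fold changes of -0.30 (95% interval -0.87 to 0.28) from E to M, 0.63 (0.05 to 1.21) from M to RE and 0.33 (-0.24 to 0.91) from E to RE. The other 5 genes of this stretch (*Cyp51*, *Sc4mol*, *Nsdhl*, *Ebp* and *Sc5d*) did not pass in any comparison, with values from -0.21 to 0.60.

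The genes that govern the pathway rose in part. *Srebf1*, which encodes the SREBP best known for fatty acid genes, had 252 and 223 ppm in E, 344 and 324 ppm in M, and 437 and 427 ppm in RE. The stages followed one another without overlap. Its log2 fold change was 0.49 ± 0.13 from E to M (SE, limma adjusted p = 0.021), 0.37 from M to RE (limma adjusted p = 0.0682) and 0.87 ± 0.13 from E to RE (limma adjusted p = 0.00366). *Srebf2*, whose product mainly drives sterol genes, had 407 and 448 ppm in E, 545 and 515 ppm in M, and 588 and 575 ppm in RE, and rose from E to RE by 0.45 (limma adjusted p = 0.0404). Its steps from E to M (0.31, limma adjusted p = 0.0964) and from M to RE (0.13, limma adjusted p = 0.489) did not pass.

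*Insig1*, itself an SREBP target and a brake on SCAP, stood at 95.6 and 68.9 ppm in E, 91.2 and 76.2 ppm in M, and 191 and 172 ppm in RE. E and M overlapped, and both RE libraries were above all 4 of them. It rose by 1.12 ± 0.19 from M to RE and 1.16 ± 0.19 from E to RE (SE, limma adjusted p = 0.00355 and 0.00434), which is 2.17 and 2.20 times the mean level, while E to M gave 0.04 (limma adjusted p = 0.882). *Insig2*, its paralog, had 40.3 and 31.8 ppm in E, 27.5 and 27.8 ppm in M, and 41.6 and 37.8 ppm in RE. It was lowest in M and rose from M to RE by 0.52 (limma adjusted p = 0.0412), with no detectable difference between E and RE (0.15, 95% interval -0.22 to 0.51, limma adjusted p = 0.515).

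*Scap*, which encodes the escort of the SREBPs, had 188 and 200 ppm in E, 244 ppm in both M libraries, and 173 and 172 ppm in RE. It was the only gene of this group to fall from M to RE (by 0.50, limma adjusted p = 0.0172), and its value from E to RE was -0.17 (95% interval -0.45 to 0.11, limma adjusted p = 0.322). *Stard4*, which moves cholesterol between membranes, had 21.2 and 15.6 ppm in E, 27.4 and 22.4 ppm in M, and 37.9 and 37.0 ppm in RE. It rose from E to RE by 1.04 ± 0.19 (SE, limma adjusted p = 0.00697) and from M to RE by 0.59 (limma adjusted p = 0.0483).

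The 5 genes of fatty acid synthesis split into a pair that fell in M cells and a trio that rose there. *Acss2*, which makes acetyl-CoA from acetate, stood at 13.3 and 10.7 ppm in E, 5.54 and 5.25 ppm in M, and 21.7 and 18.1 ppm in RE. M was the lowest stage and RE the highest, with no overlap. It fell from E to M by 1.13 ± 0.18 (SE, limma adjusted p = 0.00262), rose from M to RE by 1.86 ± 0.18 (limma adjusted p = 0.000318), and ended 0.73 above E (limma adjusted p = 0.0232). *Acacb*, the acetyl-CoA carboxylase found at mitochondria and known for restraining fatty acid oxidation, followed the same course. It had 11.4 and 11.0 ppm in E, 5.27 and 6.52 ppm in M, and 20.6 and 19.3 ppm in RE. The fall from E to M was by 0.92 (limma adjusted p = 0.00459), the rise from M to RE 1.75 ± 0.17 (SE, limma adjusted p = 0.000295) and the rise from E to RE 0.83 (limma adjusted p = 0.0112).

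*Acaca*, the cytosolic acetyl-CoA carboxylase that commits carbon to synthesis, went the opposite way from *Acacb* in M cells, with 21.9 and 40.8 ppm in E, 55.0 and 64.8 ppm in M, and 53.3 and 63.3 ppm in RE. Both E libraries were below the other 4, and they differed from each other by -0.89 on the log2 scale (E1 minus E2). It rose from E to M by 0.99 ± 0.27 (SE, limma adjusted p = 0.0233) and from E to RE by 0.95 (limma adjusted p = 0.0359), with -0.04 between M and RE (95% interval -0.68 to 0.60). *Fasn*, the fatty acid synthase, had 1153 and 1332 ppm in E, 1980 and 1855 ppm in M, and 1663 and 1691 ppm in RE. RE lay between the other stages. *Fasn* rose from E to M by 0.63 (95% interval 0.26 to 0.99, limma adjusted p = 0.0157), and its values from M to RE (-0.19, -0.56 to 0.17) and from E to RE (0.44, 0.07 to 0.80) did not pass. *Acly*, which supplies cytosolic acetyl-CoA from citrate, rose from E by 0.81 in M and 0.72 in RE (limma adjusted p = 0.00338 and 0.00865).

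Among desaturases and elongases, *Elovl6* had the steepest course. It lengthens palmitate to stearate. Its levels were 31.3 and 36.9 ppm in E, 12.4 and 9.74 ppm in M, and 38.9 and 36.5 ppm in RE. Both M libraries were far below the other 4, and E and RE overlapped. *Elovl6* fell from E to M by 1.62 ± 0.17 (SE, limma adjusted p = 0.000369), to 0.32 times the mean level, and rose from M to RE by 1.77 ± 0.17 (limma adjusted p = 0.000285), to 3.41 times. Its value from E to RE was 0.15 (95% interval -0.25 to 0.55, limma adjusted p = 0.543).

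The stearoyl-CoA desaturases *Scd1* and *Scd2*, neighbouring paralogs that place the first double bond in stearate and palmitate, parted after TGFβ1 removal. *Scd1* had 117 and 134 ppm in E, 244 and 180 ppm in M, and 389 and 385 ppm in RE. It climbed at each step without overlap, by 0.74 from E to M (limma adjusted p = 0.0116) and 0.88 ± 0.17 from M to RE (SE, limma adjusted p = 0.00714), for a total of 1.62 ± 0.17 or 3.07 times the E level (limma adjusted p = 0.000948). *Scd2* had 349 and 424 ppm in E, 1045 and 839 ppm in M, and 956 and 936 ppm in RE. It rose once, from E to M, by 1.28 ± 0.17 (SE, limma adjusted p = 0.00105), and RE remained at the M level, with 0.01 between them (95% interval -0.38 to 0.41). From E to RE the rise was 1.30 ± 0.17 (limma adjusted p = 0.00207). That *Scd1* and *Scd2* differ from M to RE was not tested as such, although their intervals (0.49 to 1.28 and -0.38 to 0.41) do not meet.

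*Fads1* and *Fads2*, the desaturases of polyunsaturated fatty acids, and *Elovl5*, an elongase of the same chain, rose from E to M by 0.95, 0.58 and 0.66 (limma adjusted p = 0.00441, 0.0219 and 0.0183). From M to RE their values were -0.36, -0.23 and -0.23 and did not pass, and from E to RE only *Fads1* did (0.59, limma adjusted p = 0.0396). *Elovl1*, which makes very long saturated chains, fell from M to RE by 0.58 (limma adjusted p = 0.0221) and was, with *Scap*, the only gene of the list to fall there.

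**Figure D2:**
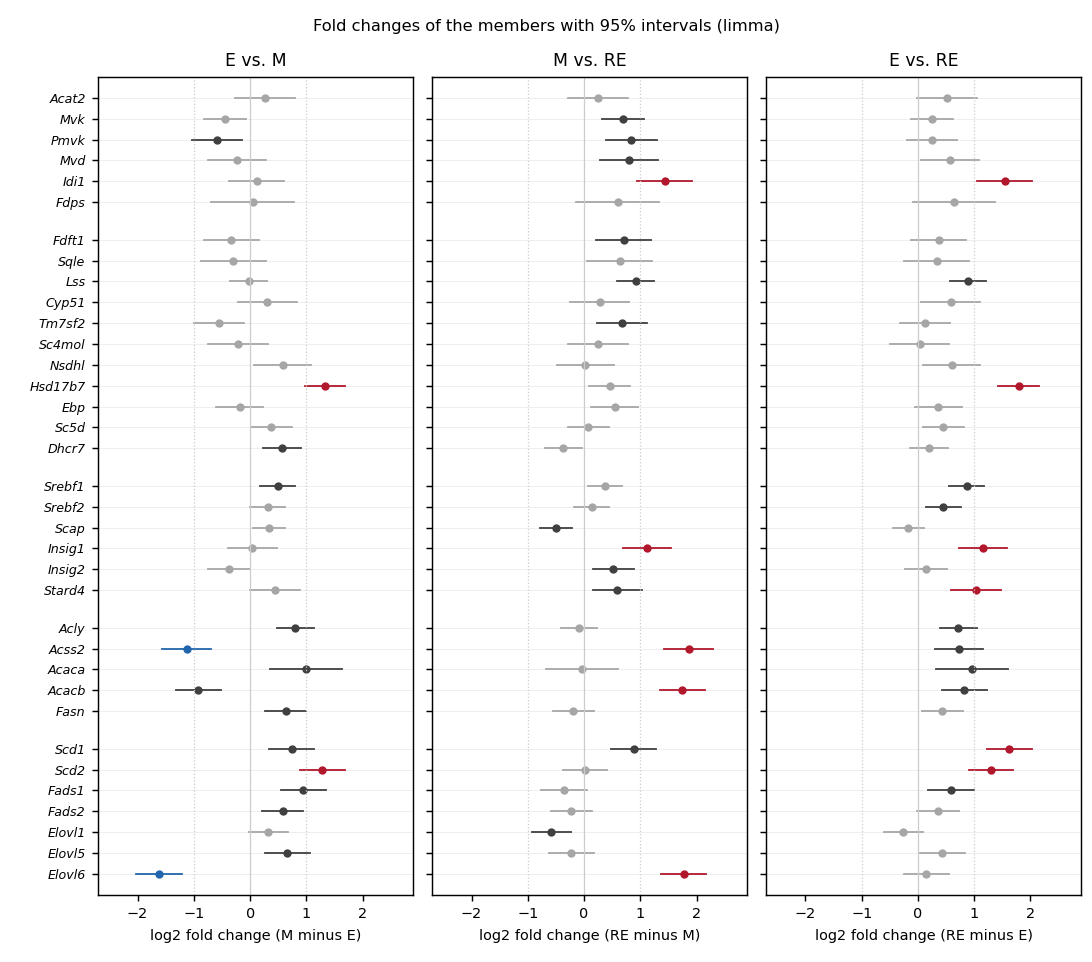
Log2 fold change of each measured gene (points) with its 95% interval (lines) in E vs. M, M vs. RE and E vs. RE, from 1 limma fit to all 6 libraries. Red marks genes called higher and blue genes called lower, dark grey those at an adjusted p below 0.05 only, light grey the rest, and dotted lines stand at a log2 fold change of 1 either way; blue points are present only in E vs. M, at *Acss2* and *Elovl6*.

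The enzymes were also read by arm. Of 17 sterol synthesis enzymes measured, 2 rose and 1 fell from E to M, with 8 on the higher side and a median log2 fold change of -0.03, and 7 rose and 0 fell from M to RE, with 16 on the higher side and a median of 0.60. Of 12 fatty acid enzymes, 8 rose and 3 fell from E to M (median 0.65). From M to RE 4 of them rose and 1 fell (median -0.06), the steepest there being *Acss2*, *Elovl6* and *Acacb*. Of all genes tested, 21.5% rose and 19.9% fell from E to M, and 17% rose and 14.6% fell from M to RE. The share of all genes on the higher side was 50.1% from E to M, 48.8% from M to RE and 50.5% from E to RE. From E to RE, 17 of 17 sterol enzymes and 11 of 12 fatty acid enzymes were on the higher side, with medians of 0.45 and 0.65, but only 3 and 7 of them rose in limma, and the 3 sterol enzymes are about the share of all genes that rose (17.2%). The 17 of 17 does not hold for each library. Without E2 the values of *Sc4mol*, *Sqle* and *Pmvk* were -0.31, -0.06 and -0.01, and without RE1 that of *Tm7sf2* was -0.05. From M to RE, *Nsdhl* and *Sc5d* reached -0.19 and -0.06 with 1 library left out. There *Mvk*, *Pmvk*, *Mvd*, *Fdft1* and *Tm7sf2* passed only with both M and both RE libraries in the fit, although their values stayed between 0.50 and 0.94. No test was made of the difference between the arms, and every library enters 2 of the 3 comparisons.

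**Figure D3:**
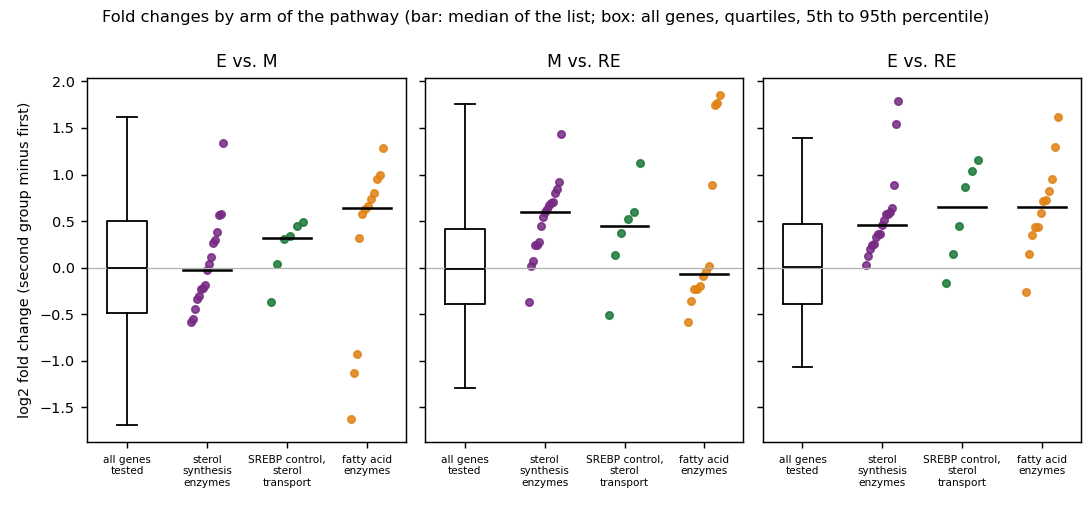
Log2 fold changes of the sterol synthesis enzymes (17), the SREBP control and sterol transport genes (6) and the fatty acid enzymes (12) in the 3 comparisons, beside a box of all 13893 genes tested. Points are genes and bars their medians, which for sterol enzymes move from -0.03 in E vs. M to 0.60 in M vs. RE, and for fatty acid enzymes from 0.65 to -0.06.

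The order of the individual libraries was also read. In 16 of 35 genes both RE libraries were above all 4 E and M libraries, against 18.1% of all genes tested. These included 9 of 17 sterol enzymes (*Acat2*, *Mvk*, *Mvd*, *Idi1*, *Fdps*, *Lss*, *Cyp51*, *Hsd17b7* and *Ebp*), 4 of 6 control genes (*Srebf1*, *Srebf2*, *Insig1* and *Stard4*) and 3 of 12 fatty acid enzymes (*Acss2*, *Acacb* and *Scd1*). In 16 genes both E libraries were below all M and RE libraries, against 21.2% of all genes, and 8 of these were fatty acid enzymes (*Acly*, *Acaca*, *Fasn*, *Scd1*, *Scd2*, *Fads1*, *Fads2* and *Elovl5*). Both M libraries were below the other 4 in 7 genes (*Mvk*, *Pmvk*, *Tm7sf2*, *Insig2*, *Acss2*, *Acacb* and *Elovl6*), which is near the share of all genes (22.9%).

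The 2 libraries of a stage differed in the sterol arm, most of all in E cells. Of 17 sterol enzymes, 13 were higher in E1 than in E2, with a median difference of 0.52 on the log2 scale that reached 0.96 in *Fdps*; over all genes tested 51.5% were higher in E1, with a median of 0.02 and an SD of 0.558. The exceptions were *Idi1*, *Lss*, *Hsd17b7* and *Dhcr7*. Between M1 and M2 the sterol enzymes differed by a median of 0.25, with 15 of 17 higher in M1, and between RE1 and RE2 by 0.06. Over all genes tested 57.8% were higher in M1 and 53.1% in RE1, with medians of 0.04 and 0.01. Fatty acid enzymes leaned the other way in E cells, with 5 of 12 higher in E1 and a median of -0.20. Each E comparison of a sterol enzyme thus carries this spread. For *Acat2*, *Mvd*, *Fdps*, *Fdft1*, *Sqle*, *Cyp51*, *Sc4mol* and *Ebp* it was larger than either difference from E.

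**Figure D4:**
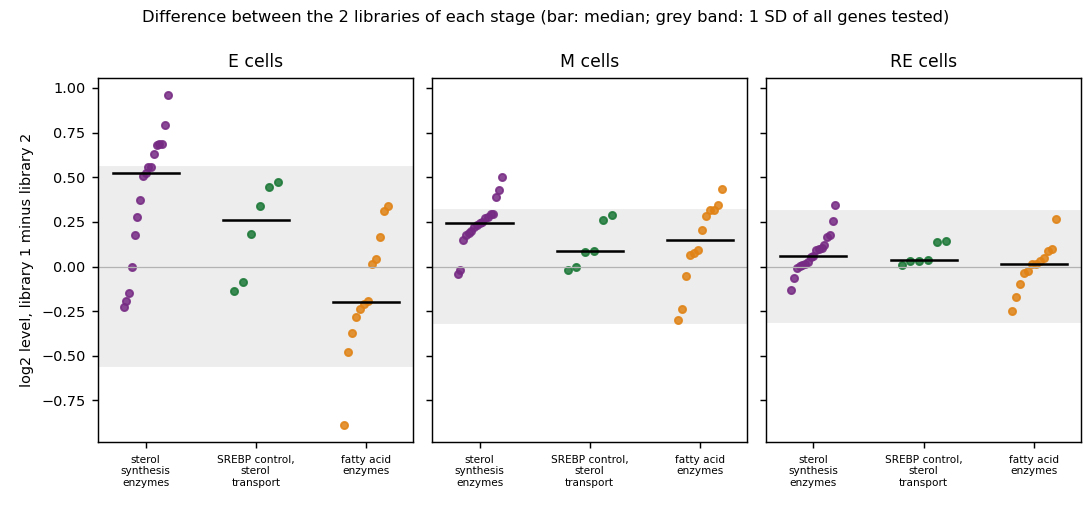
Difference in log2 level between library 1 and library 2 of E, M and RE cells for the sterol synthesis enzymes, the SREBP control and sterol transport genes and the fatty acid enzymes. Points are genes, bars medians and the grey band 1 SD of all genes tested (0.558 in E), and the sterol enzymes of E cells have a median of 0.52 and reach 0.96.

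Single libraries decided several calls. Without M1, only *Elovl6* of the 4 genes called from E to M was called, the values of the others being 1.25 for *Hsd17b7*, 1.13 for *Scd2* and -1.17 for *Acss2* (limma adjusted p = 0.0141, 0.0193 and 0.0298). *Acss2* was also not called without M2 or without E1, where its value was -0.97. From M to RE, *Acss2*, *Acacb* and *Elovl6* were called whichever library was left out, whereas *Idi1* and *Insig1* were not called without any 1 of M1, M2, RE1 or RE2 (log2 fold changes of 1.37 to 1.496 and of 0.99 to 1.25). From E to RE, leaving out RE1 ended all 6 calls, with log2 fold changes still from 1.02 to 1.70 and adjusted p from 0.0158 to 0.0801 in limma. The calls over all genes dropped from 1302 to 38 in the same fit. Leaving out RE2 ended all but *Hsd17b7*, and leaving out M1 or M2 ended those of *Idi1*, *Insig1* and *Stard4*. Without E2, *Insig1* and *Stard4* had values of 0.92 and 0.81 and were not called. In each case the direction stayed, and the stage left with 1 library was assumed to vary like the others.

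The promoters of called members are shown so that the letters before the starts of the genes described above can be compared. NF-Y and Sp1 are general factors with known boxes near many starts. RefSeq start windows (250 bases before to 50 after the start, build GRCm38.p6) were matched for 29 of the 36 listed genes. *Fdps*, *Fdft1*, *Sqle*, *Stard4*, *Scd1*, *Scd2* and *Fads1* had no window. Of the 9 members called in any comparison, 6 had one, and the stretch just before the start is printed here 5′ to 3′ on the gene's strand, with matches to the NF-Y box CCAAT, the Sp1 box GGGCGG and the E-box CACGTG, on either strand, in capitals. They are *Idi1* at chr13:8885446-8885605 (plus strand), *Insig1* at chr5:28071252-28071411 (plus), *Hsd17b7* at chr1:169969206-169969365 (minus), *Acss2* at chr2:155517883-155518042 (plus), *Acacb* at chr5:114165358-114165517 (plus) and *Elovl6* at chr3:129532226-129532385 (plus).
Idi1: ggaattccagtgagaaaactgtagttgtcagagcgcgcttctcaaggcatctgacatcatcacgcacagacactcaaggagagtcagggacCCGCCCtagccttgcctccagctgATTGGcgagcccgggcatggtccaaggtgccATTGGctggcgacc
Insig1: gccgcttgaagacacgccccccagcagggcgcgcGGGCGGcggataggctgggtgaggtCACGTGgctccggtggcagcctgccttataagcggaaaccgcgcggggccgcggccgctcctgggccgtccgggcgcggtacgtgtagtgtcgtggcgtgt
Hsd17b7: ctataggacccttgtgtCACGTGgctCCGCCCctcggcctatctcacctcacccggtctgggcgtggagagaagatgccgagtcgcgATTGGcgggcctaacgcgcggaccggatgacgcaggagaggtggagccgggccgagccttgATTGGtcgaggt
Acss2: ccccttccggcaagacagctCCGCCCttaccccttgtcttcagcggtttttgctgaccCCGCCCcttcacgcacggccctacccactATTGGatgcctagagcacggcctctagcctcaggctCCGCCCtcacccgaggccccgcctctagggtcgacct
Acacb: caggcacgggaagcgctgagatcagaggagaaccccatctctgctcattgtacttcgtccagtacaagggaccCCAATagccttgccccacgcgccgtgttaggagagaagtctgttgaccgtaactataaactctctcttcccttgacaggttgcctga
Elovl6: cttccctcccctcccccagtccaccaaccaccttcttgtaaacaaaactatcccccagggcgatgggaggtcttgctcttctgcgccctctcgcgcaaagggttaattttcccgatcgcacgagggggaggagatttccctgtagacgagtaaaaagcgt

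The *Idi1* stretch held 2 NF-Y boxes and 1 Sp1 box, and that of *Hsd17b7* 2 NF-Y boxes, 1 Sp1 box and 1 E-box. *Insig1* had 1 Sp1 box and 1 E-box, *Acss2* 1 NF-Y box and 3 Sp1 boxes, and *Acacb* 1 NF-Y box, while *Elovl6* had no match to these letters in its stretch. None of these matches overlapped another. Over the full windows, CCAAT was present in 65.8% of the 38 windows of listed genes against 37.4% of all 32851 windows, GGGCGG in 73.7% against 35.7%, and CACGTG in 18.4% against 7.15%. The sterol regulatory letters TCACNCCAC, searched on both strands, were in 1 window of the list, that of *Hmgcs1*, and in 1.24% of all windows. A match describes letters only and says nothing of binding in these cells.

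Genes that work beside the list were read from 4 further lists. In sterol and fatty acid synthesis, 21 further genes were tested, of which 6 rose and 4 fell from E to M, 3 rose and 3 fell from M to RE, and 3 rose and 2 fell from E to RE, beside shares over all genes of 21.5% and 19.9%, 17% and 14.6%, and 17.2% and 12.9%. *Fads3*, a desaturase relative, had 143 and 220 ppm in E, 471 and 451 ppm in M, and 116 and 127 ppm in RE, so that it was high in M cells alone (1.38 from E to M and -1.93 from M to RE). *Scd3* and *Scd4*, close paralogs of *Scd1*, had values of 1.09 and 1.37 from E to M and 1.01 and 1.67 from E to RE. *Acat1* and *Mid1ip1* were called lower from E to M (-1.15 and -1.05), and *Mlycd*, which breaks down malonyl-CoA, was called higher from M to RE (1.01, limma adjusted p = 0.00355).

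Of 18 regulators of SREBP and LXR activity tested, none was called in the 3 comparisons by limma. At an adjusted p below 0.05, 1 rose and 4 fell from E to M, against 21.5% and 19.9% of all genes. From M to RE 3 rose and 1 fell, against 17% and 14.6%, and from E to RE 3 rose and 3 fell, against 17.2% and 12.9%. The uptake, storage and efflux list held the steepest changes of the 4 lists. Of its 20 genes tested, 4 were called higher and 3 lower from E to M, 3 higher and 1 lower from M to RE, and 6 higher and 2 lower from E to RE, where the shares over all genes were 8.58% and 8.39%, 8.08% and 4.79%, and 6.2% and 3.17%. *Mylip*, an LXR target, climbed from 8.22 and 8.16 ppm in E to 16.1 and 14.8 ppm in M and 51.5 and 44.3 ppm in RE (2.53 from E to RE, limma adjusted p = 0.000223).

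Of the cholesterol exporters, *Abca1* and *Abcg1* were called, and *Abca7* was not, with values of -0.08, -0.04 and -0.12. *Abca1*, an LXR target, had 4.13 and 4.83 ppm in E, 3.09 and 2.73 ppm in M, and 45.9 and 29.1 ppm in RE, a rise of 3.61 from M and 3.00 from E (limma adjusted p = 5.56e-05 and 0.000419). *Abcg1*, another LXR target, was highest in M, with 4.58 and 5.04 ppm in E, 37.7 and 42.5 ppm in M, and 12.8 and 14.0 ppm in RE (3.03 from E to M, limma adjusted p = 1.84e-05, and -1.58 from M to RE), and it was still above E in RE (1.46, limma adjusted p = 0.00109). *Ch25h*, which makes the oxysterol 25-hydroxycholesterol, had 2.92 and 1.83 ppm in E, 2.64 and 4.24 ppm in M, and 9.93 and 11.9 ppm in RE (2.18 from E to RE). *Lipa*, the lysosomal lipase that frees cholesterol from esters, rose from E by 1.10 in M and 1.48 in RE (limma adjusted p = 0.00175 and 0.00116).

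*Lrp1*, a lipoprotein receptor, rose by 2.42 from E to M, and *Npc1*, the lysosomal cholesterol exporter, by 1.04, while *Stard5* was called lower (-1.31). *Vldlr* and *Soat2* were called lower both from E to M, at -3.24 and -4.25, and from E to RE, at -3.45 and -4.81. From M to RE they gave -0.21 and -0.56 (limma adjusted p = 0.799 and 0.498). However, their E libraries were unequal, with 3.54 and 10.5 ppm for *Vldlr* and 4.31 and 15.9 ppm for *Soat2*. In the macrophage and leukocyte marker list the summed level was 6.84 and 10.6 ppm in E, 33.2 and 37.0 ppm in M, and 7.44 and 7.61 ppm in RE, through *Csf1r*, while *Ptprc* was at most 0.0781 ppm. The endothelial marker *Cdh5* was at 0 in both E libraries, 2.33 and 2.07 ppm in M and at most 0.0910 ppm in RE. The rest of the endothelial list did not follow it. *Pecam1* was at most 0.429 ppm (0.52 from E to M, limma adjusted p = 0.27) and *Kdr* at most 0.0694 ppm. *Tek* had 0.254 and 0.19 ppm in E and 0.0958 and 0.170 ppm in M. The part of the *Csf1r* and *Cdh5* signals in the M levels of *Abcg1* and *Lrp1* was not tested.

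In fatty acid activation and glycerolipid synthesis, 3 of 21 genes tested were called higher and 2 lower from E to M, 2 higher and 1 lower from M to RE, and 3 higher and 2 lower from E to RE, against the same shares over all genes (8.58% and 8.39%, 8.08% and 4.79%, and 6.2% and 3.17%). *Lpin1*, a phosphatidate phosphatase and SREBP target, had 17.7 and 21.7 ppm in E, 40.8 and 39.3 ppm in M, and 83.5 and 77.4 ppm in RE, climbing at each step to 2.03 above E (limma adjusted p = 0.000342). *Lpl*, the lipase that draws fatty acids from lipoproteins, had 62.7 and 93.6 ppm in E, 5.74 and 6.21 ppm in M, and 34.1 and 36.0 ppm in RE, a fall by 3.66 and a partial rise of 2.53. *Acsl1* and *Acsl4*, which activate fatty acids, rose from E to RE by 1.25 and 1.18. *Dgat2*, which makes triglyceride, fell from E to RE by 1.55, *Pnpla2*, which breaks it down, fell from E to M by 1.22, and *Lpin3* rose by 1.58 in M and fell by 2.03 after it.

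**Figure D5:**
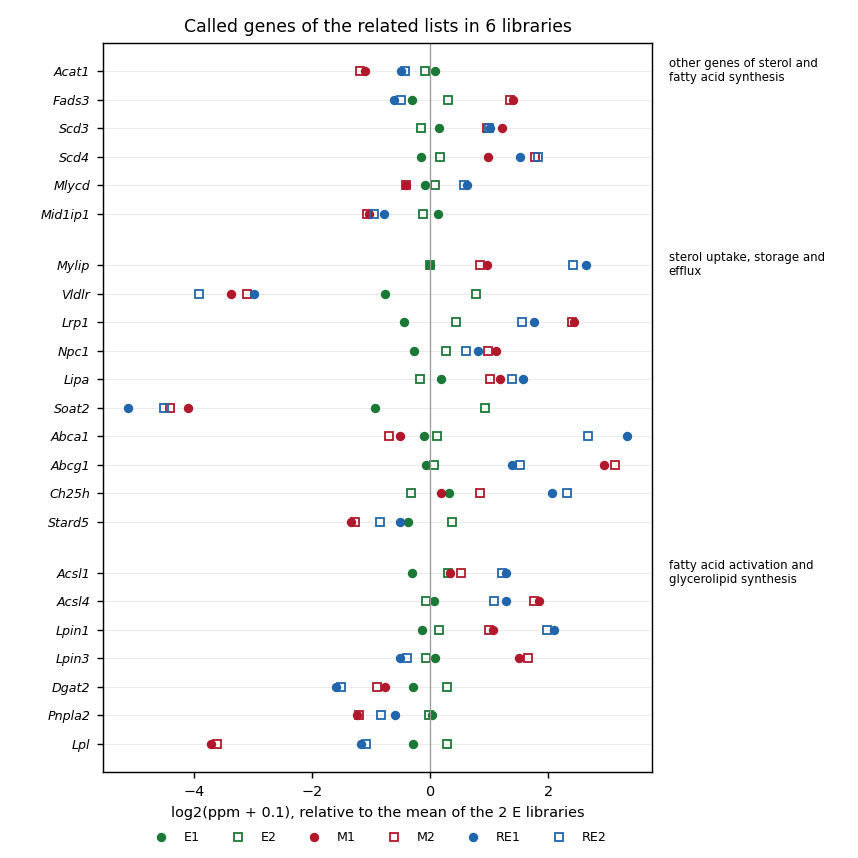
Levels of the 23 genes of the 4 further lists that were called in at least 1 comparison, on the log2(ppm + 0.1) scale relative to the mean of both E libraries; symbols as for the genes of the main list. *Abca1*, *Mylip* and *Ch25h* have their RE symbols farthest to the right, *Abcg1*, *Lrp1* and *Acsl4* their M symbols, and *Vldlr* and *Soat2* lie far to the left in both M and RE.

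Some members overlap neighbours in the annotation and may share coverage with them. By the GENCODE annotation of GRCm38, a later build than the one the reads were mapped to, exons of *Acss2*, *Cyp51*, *Elovl1*, *Fdft1* and *Srebf1* overlap an opposite-strand gene, and those of *Fdps* and *Tm7sf2* a gene on the same strand. Whether the coverage was summed by strand is not stated, so their values may include the neighbour. Reads that map equally to *Scd1* and its paralogs, or to *Acat2* and its copy *Acat3*, would be lost, since only unique reads were kept.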

How the data were processed

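The authors mapped unique reads to the NCBIm37 mouse genome with Bowtie and TopHat2 and used edgeR; how bases were summed per gene, the annotation and all versions are not given in the sources used here. The deposited table held coverage (signal) for 17428 genes in 6 columns, each taken to its library by name. Values were not read counts (44.8% to 48.4% of values from 1 to 400 were multiples of 50), so edgeR was not run and limma 3.58.1 (R 4.3.3) was used.

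Values were set to ppm of the library total with TMM factors without weights (30% and 5% trimmed) and analysed as log2(ppm + 0.1), which understates the change of low genes, among 13893 genes that reached 500 bases in 2 or more libraries. The 6 libraries entered 1 fit with group only and a trend on mean level, with Benjamini-Hochberg adjustment over all genes. Signs give the later stage minus the earlier one, in the order E, M, RE. Depth (35782513 to 47928557 reads' worth) covers counting error only. The precision is limited more by n = 2.

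The members and lists were chosen with earlier results of these data known. Per-library values are given for members called in any comparison and for *Srebf1*, *Srebf2*, *Insig1*, *Insig2*, *Scap*, *Sqle*, *Fasn*, *Acaca*, *Scd1* and *Scd2*, and genes of further lists are named if called, except items that are not reported here and were left out of the counts of their lists. The fit was tested on simulated data. Alternatives covered scaling, filter, pseudocount, libraries, weights, the replicate number as a block and, chosen after seeing the data, removal of trends on GC content and transcript length (12973 genes and all 35 members matched). Promoter windows were matched by symbol from RefSeq (GRCm38.p6).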

Additional observations from a re-analysis of the deposited data

How the results depend on the processing

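No member reversed its direction after being called. Over the alternatives 1581 single-gene values either kept their call or stayed uncalled and moved by at most the standard error of their fold change. A further 149 stayed uncalled but moved by more than that, 12 gained a call and 43 lost one. A fold threshold of 1.5 gave 7 members from E to M (with *Acly*, *Acacb* and *Fads1* added). Scaling by library totals gave 8 members called from M to RE (*Pmvk*, *Lss* and *Scd1* added, at 1.05, 1.12 and 1.09) and medians of 0.0019, 0.66 and 0.41 in E vs. M, M vs. RE and E vs. RE, and it changed the share of higher genes among those called, which was 50.6% in E vs. M and became 30.5%, and was 62.8% in M vs. RE and became 73.8%. Under it *Scd2* was 0.98 from E to M and *Stard4* 0.94 from E to RE, neither called. Fitting only the 2 groups compared gave 26 members at an adjusted p below 0.05 from M to RE and 3 called from E to RE (*Idi1*, *Insig1* and *Stard4* lost). Without the trends on GC content and length *Scd2* was 0.92 from E to M and 0.94 from E to RE and was not called. There *Fasn*, *Srebf1* and *Pmvk* were 0.37, 0.40 and -0.39 from E to M and no longer passed an adjusted p of 0.05. *Sc5d*, *Srebf2*, *Scap*, *Stard4* and *Elovl1* passed instead, for 17 members at that threshold. Leaving out 1 library at a time gave 1 to 6, 3 to 5 and 0 to 7 members called in E vs. M, M vs. RE and E vs. RE, 4 to 26, 5 to 26 and 4 to 28 at an adjusted p below 0.05, and medians of 0.12 to 0.42, 0.34 to 0.54 and 0.32 to 0.65. The replicate numbers pair nothing that the labels state. Same-numbered deviations correlated at 0.267 between E and M, 0.058 between E and RE and 0.116 between M and RE, and with the replicate number as a block 4, 5 and 6 members were called, the same genes as without it. Depth limits the members little, with at least 58 reads' worth in every library, and the 2 libraries per stage limit them more.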
